A study of Arabidopsis thaliana with 18 samples.

Results

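The genes described here were at a lower level after tunicamycin (TM) in both ire1 mutants while their level in wild-type (WT) seedlings stayed close to that of the solvent control. They were chosen on measured values. Counts of a gene, scaled to the same total of gene counts in each library (CPM), were averaged over the replicates of a group, and the change was the log2 ratio of (mean CPM in TM + 1) to (mean CPM in DMSO + 1). A gene was taken when the change was −0.8 or lower in ire1b and in ire1a1b, lay between −0.3 and 0.3 in WT, and the mean in DMSO was at least 5 CPM in all 3 genotypes. This gave 50 genes of 27416 in the tables and of 15456 that met the 5 CPM floor. The changes under TM, and the differences from WT in them, are therefore a description with no test.

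The study sequenced polyA RNA of whole Arabidopsis thaliana seedlings grown for 7 days on vertical plates and then kept for 6 h in liquid medium with the solvent DMSO or with TM at 5 µg/mL. The genotypes were WT, the single mutant ire1b and the double mutant ire1a ire1b, called ire1a1b here, with no allele named in the labels, and each of the 6 groups had 3 libraries. Paired-end reads of 250 nt gave 16.35 to 24.85 M gene counts per library, and the lowest count of any of the 50 genes in any library was 26. The sources do not say that replicates came from separate cultures, and the p-values below then reflect only how far these libraries differ among themselves, possibly for technical reasons.

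Tunicamycin blocks the first step of N-glycosylation, so that unfolded glycoproteins collect in the endoplasmic reticulum (ER). IRE1 is an ER membrane protein with a kinase and an RNase domain that senses this state, splices the mRNA of the transcription factor bZIP60 and cleaves other mRNAs at the ER membrane. Arabidopsis carries IRE1A and IRE1B, which overlap in function.

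IRE1A ranged from 78.6 to 95.3 CPM in the WT libraries, from 91.8 to 98.9 in those labelled ire1b and from 19.8 to 24.3 in those labelled ire1a1b. IRE1B, listed as IRE1-1 in RefSeq, ranged from 29.7 to 37.1 CPM in WT, from 34.4 to 46.1 in ire1b and from 36.4 to 46.8 in ire1a1b, so its level did not mark the mutant libraries and the genotype names below are those of the labels. Replicate 1 of WT and of ire1a1b, in both treatments, stood apart from the other 14 libraries on the second principal component of all tested genes, with scores of 31.9 to 48.6 against −27.6 to 3.8. In bulk RNA of whole seedlings, fewer cells of a type and less RNA per cell cannot be told apart.

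The median change of the 50 genes was −0.19 in WT, −1.28 in ire1b and −0.98 in ire1a1b, beside −0.02, −0.05 and −0.08 over the 15456 genes at the floor. The changes ranged from −0.29 to 0.21 in WT, from −2.53 to −0.81 in ire1b and from −2.17 to −0.80 in ire1a1b. In WT, 43 of the 50 changes were below 0, beside 55.4% of the genes at the floor, so most of these genes sat on the lower side of the WT window. The change was lower in ire1b for 40 genes and lower in ire1a1b for 10. Within the genes at the floor, 335 had a change of −0.8 or lower in both mutants. Of these, 283 had a WT change below −0.3, 2 one above 0.3 and 50 (14.9%) lay inside the window.

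**Figure D1:**
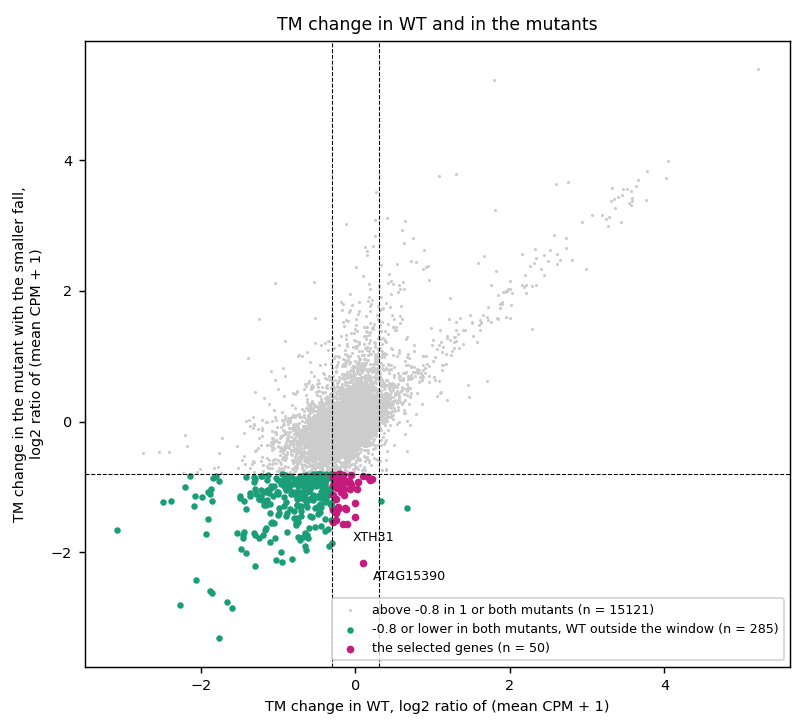
TM change in WT (x axis) against the change in whichever mutant had the higher value (y axis), both as log2 ratios of (mean CPM + 1), for the 15456 genes at the floor. The dashed lines mark the selection bounds, and the 50 genes (magenta) sit along the right edge of a larger cloud of 285 genes (green) that reached −0.8 in both mutants with WT outside its window, 283 of them below it.

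All 3 TM libraries were below all 3 DMSO libraries for 6 of the 50 genes in WT (11.9% of genes at the floor), for 48 in ire1b (29.7%) and for 44 in ire1a1b (17.3%). In TM, every ire1b library was below every WT library for 47 of them (26.7% of genes at the floor), every ire1a1b library for 42 (21.7%), and both held for 42 (15.6%). By edgeR's quasi-likelihood test (adjusted p below 0.05), 5.77% of all tested genes were called as fallen in WT, 11.6% in ire1b and 6.59% in ire1a1b. No such calls are given for the 50 genes, since the selection used these responses. The counts of separated libraries rest on the same contrasts, so they describe how far the replicates of the chosen genes were apart and nothing is read from them. Taken by replicate number, the median change in WT was −0.01, −0.22 and −0.23 in replicates 1, 2 and 3, in ire1b −1.26, −1.27 and −1.26, and in ire1a1b −0.90, −1.0 and −1.13.

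**Figure D2:**
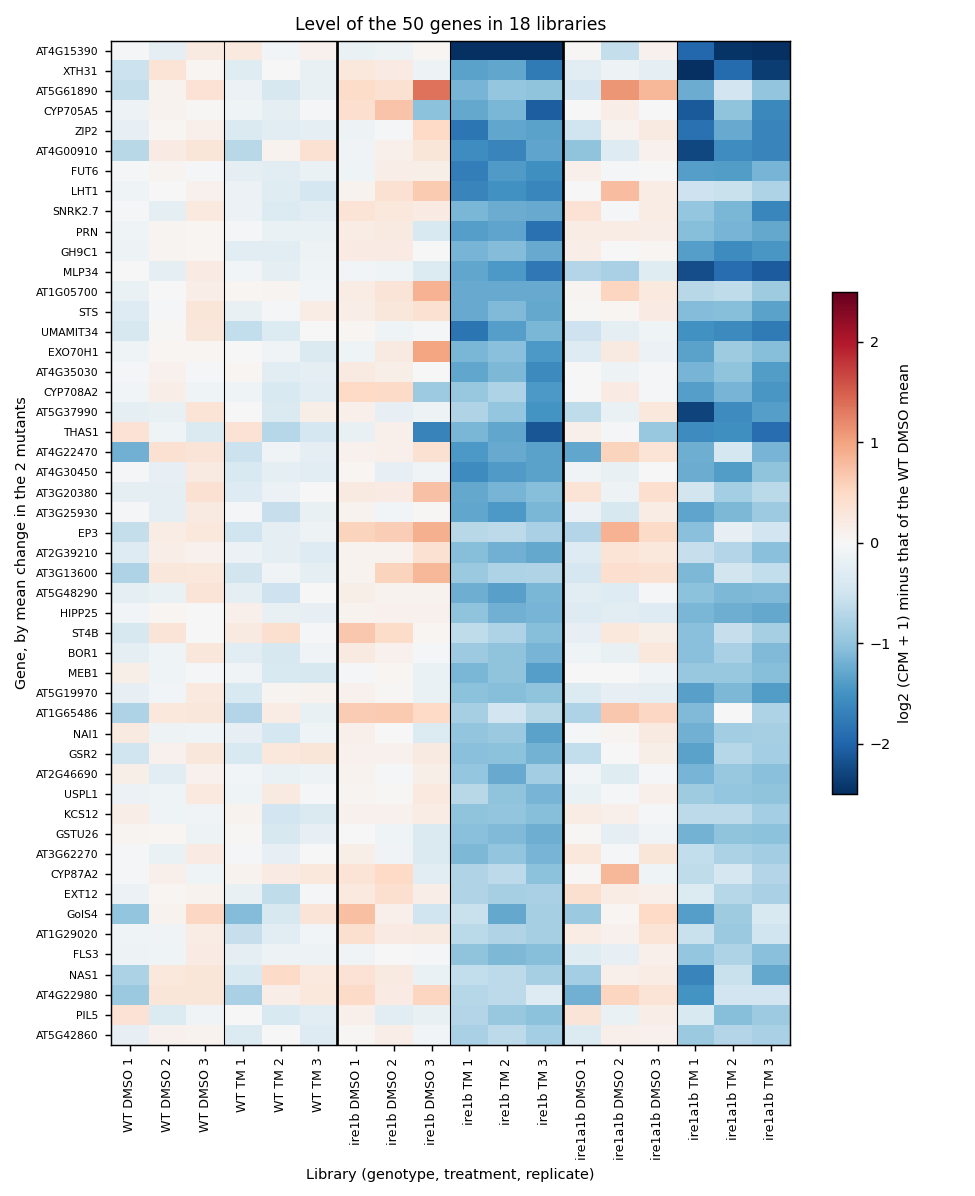
Level of the 50 genes (rows, ordered by the mean of the changes in both mutants) in the 18 libraries (columns), as log2(CPM + 1) minus that of the WT DMSO mean, with blue for lower and red for higher levels. The TM columns of both mutants are blue in nearly every row while WT TM is pale, and replicate 1 of WT and ire1a1b is blue in DMSO for a few rows such as AT4G22470 and AT4G22980.

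Genes of triterpene synthesis and a gene beside them are described first. Plants make triterpenes by cyclising oxidosqualene, and in Arabidopsis roots several such pathways are encoded by runs of neighbouring genes that are expressed together. AT4G15390, annotated as an HXXXD-type acyltransferase, had the lowest mean change of the 50 genes, and THAS1 (thalianol synthase), CYP708A2 (thalianol hydroxylase) and CYP705A5 (thalian-diol desaturase) encode consecutive steps of the thalianol pathway. The 250 bases before the annotated start of these 4 genes are shown because the thalianol genes are neighbours that moved together and AT4G15390 changed most. They were read from the TAIR10.1 genome of RefSeq in the direction of transcription, 5′ to 3′, on the plus strand for CYP705A5 (chr5:19434508-19434757) and THAS1 (chr5:19456587-19456836) and on the minus strand for CYP708A2 (chr5:19447867-19448116) and AT4G15390 (chr4:8794443-8794692). Capitals mark the letters ACGT, the core shared by many sites of bZIP and bHLH transcription factors.
CYP705A5: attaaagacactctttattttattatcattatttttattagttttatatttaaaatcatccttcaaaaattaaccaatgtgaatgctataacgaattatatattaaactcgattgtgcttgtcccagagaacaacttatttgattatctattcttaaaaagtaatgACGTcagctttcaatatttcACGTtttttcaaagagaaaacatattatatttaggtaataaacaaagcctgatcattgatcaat
CYP708A2: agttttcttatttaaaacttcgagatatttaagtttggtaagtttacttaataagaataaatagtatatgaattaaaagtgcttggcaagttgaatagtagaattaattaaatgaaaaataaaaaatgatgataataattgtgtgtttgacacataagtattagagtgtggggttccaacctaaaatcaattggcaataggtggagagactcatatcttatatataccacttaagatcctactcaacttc
THAS1: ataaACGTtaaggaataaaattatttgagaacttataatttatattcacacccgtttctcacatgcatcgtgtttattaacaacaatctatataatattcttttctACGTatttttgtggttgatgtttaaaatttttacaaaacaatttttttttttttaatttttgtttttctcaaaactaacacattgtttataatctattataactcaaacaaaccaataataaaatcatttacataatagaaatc
AT4G15390: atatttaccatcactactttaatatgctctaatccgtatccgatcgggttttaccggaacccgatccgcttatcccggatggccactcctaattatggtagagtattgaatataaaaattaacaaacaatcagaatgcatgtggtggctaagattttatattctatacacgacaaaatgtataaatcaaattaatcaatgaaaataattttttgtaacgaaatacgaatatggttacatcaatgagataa

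ACGT was present in the windows of CYP705A5 and THAS1 (2 matches each), and these letters were not in the windows of CYP708A2 and AT4G15390. Of the 50 windows, 64% held ACGT, beside 44.3% of the 15426 windows of genes at the floor and 59.8% of those of 117 genes that had a change of −0.8 or lower in all 3 genotypes. CACGTG, the G-box, which contains ACGT and CACG, was in 5 windows (10%, beside 7.28% of genes at the floor), those of GH9C1, AT3G13600, PRN, SNRK2.7 and AT5G37990. TGGGCC, the site II element found before many ribosomal protein genes, was in 2 of the 50 windows (4%) and in 17.8% of those at the floor. TTGAC, the W-box core, was in 50% and 45.2%, TATAAA in 54% and 45.8%, CCAAT in 46% and 48.5%, TGTCTC in 10% and 10.4%, and GCCGCC in 0 windows and 2%. Among the 117 genes lower in all 3 genotypes the shares were 4.27% for CACGTG, 5.13% for TGGGCC and 63.2% for TTGAC. They were 61.5% for TATAAA, 41% for CCAAT, 5.98% for TGTCTC and 3.42% for GCCGCC, so a low share of TGGGCC was not particular to the 50 genes. Each motif was searched on both strands, a match is not a site, and the shares carry no test.

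AT4G15390 (chr4:8792707-8794442) had 82.0, 70.6 and 97.8 CPM in DMSO and 99.1, 80.1 and 89.9 CPM in TM in WT, replicates 1, 2 and 3 being given in that order here and below. In ire1b it had 74.4, 76.7 and 85.9 CPM in DMSO and 13.4, 12.2 and 13.1 CPM in TM. In ire1a1b it had 84.7, 55.1 and 90.2 CPM in DMSO and 20.6, 14.5 and 13.7 CPM in TM. The TM libraries of both mutants lay far below all 12 others and did not overlap them, while WT overlapped between treatments. As means ± SD (n = 3), ire1b went from 79.0 ± 6.07 to 12.9 ± 0.61 CPM, a level 6.13-fold lower, and ire1a1b from 76.7 ± 18.9 to 16.3 ± 3.75 CPM, 4.72-fold lower.

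AT4G15390 stands in a run of cytochrome P450, triterpene synthase and acyltransferase genes on chromosome 4, whose order is drawn in the plot of neighbouring genes. These neighbours, like the gene families set beside members below, were picked after values had been seen. CYP702A5, the next gene, missed the window because its WT change was 0.34, and its changes were −1.95 in ire1b and −1.21 in ire1a1b. CYP705A4, on the other side, changed by 0.06 in WT, −1.23 in ire1b and −0.66 in ire1a1b, above the bound in the double mutant. CYP705A1, at the far end, was below the bound in both mutants and outside the WT window, with −0.54, −1.52 and −0.86. PEN1 (arabidiol synthase) had −0.24, −0.75 and −0.47, and BIA1, a brassinosteroid-inactivating acyltransferase, −0.40, −1.25 and −0.44. Each of these neighbours, near or far, thus had the order of AT4G15390, with WT highest and ire1b lowest, and smaller sizes of change in both mutants. Of the genes below the floor in this run, CYP705A3 had this order and CYP705A2 had near-equal changes in both mutants. In CYP702A6 and BARS1 the change was lowest in ire1a1b.

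CYP705A5 (chr5:19434758-19436749) had 10.96, 12.9 and 12.4 CPM in DMSO and 11.2, 10.2 and 11.9 CPM in TM in WT. In ire1b, CYP705A5 had 16.6, 20.4 and 5.38 CPM in DMSO and 4.36, 4.93 and 2.12 CPM in TM, and in ire1a1b it had 12.2, 13.8 and 11.9 CPM in DMSO and 2.05, 5.47 and 3.29 CPM in TM. The groups of ire1a1b did not overlap between treatments, and those of ire1b stayed apart only narrowly because replicate 3 in DMSO was low. CYP708A2 (chr5:19444103-19447866) had 15.2, 17.9 and 14.7 CPM in DMSO and 14.7, 11.97 and 12.9 CPM in TM in WT. In ire1b, CYP708A2 had 22.9, 22.7 and 8.08 CPM in DMSO and 7.75, 8.94 and 5.24 CPM in TM, and in ire1a1b it had 16.04, 18.6 and 15.6 CPM in DMSO and 5.51, 6.59 and 5.203 CPM in TM. THAS1 (chr5:19456837-19461706) had 15.1, 10.7 and 8.73 CPM in DMSO and 15.04, 6.63 and 8.22 CPM in TM in WT. In ire1b, THAS1 had 10.05, 12.6 and 2.94 CPM in DMSO and 4.65, 4.07 and 1.84 CPM in TM, and in ire1a1b it had 12.7, 11.1 and 5.51 CPM in DMSO and 3.18, 3.35 and 2.34 CPM in TM. Replicate 3 of ire1b in DMSO was the lowest of its group for all 3 genes, and for CYP708A2 and THAS1 it overlapped the ire1b TM libraries.

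The changes of CYP705A5 were −0.11 in WT, −1.65 in ire1b and −1.56 in ire1a1b, those of CYP708A2 were −0.26 in WT, −1.19 in ire1b and −1.39 in ire1a1b, and those of THAS1 were −0.19 in WT, −1.08 in ire1b and −1.45 in ire1a1b. Without replicate 3 of ire1b in DMSO the ire1b changes were −2.02, −1.52 and −1.45 in the same order, so all 3 met the bound with and without it. Upstream of these genes, the acyltransferase gene AT5G47980 was below the floor, with 1.499 CPM in WT DMSO, and its changes were 0.00 in WT, −0.91 in ire1b and −0.77 in ire1a1b. The acyltransferase gene AT5G47950, at the far end of the genes shown, changed by −0.22, −0.68 and −0.34 and was also below the floor. Between these acyltransferase genes, AT5G47970, an aldolase-type protein, changed by 0.01 in ire1b and −0.01 in ire1a1b, and RABA4C, a Rab GTPase, by −0.06 and 0.30.

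**Figure D3:**
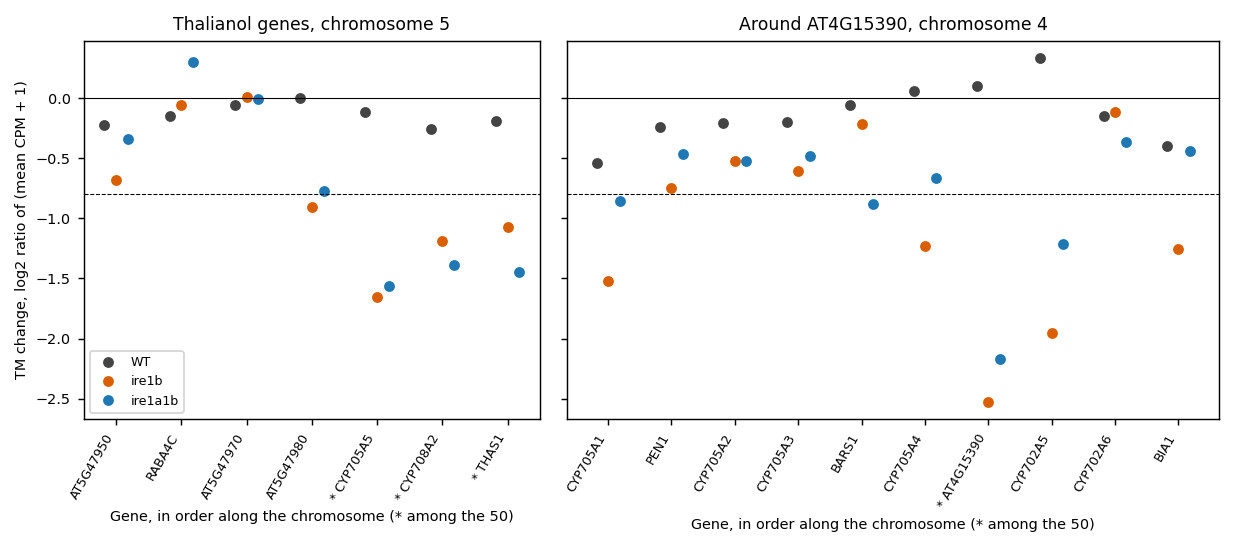
TM change (log2 ratio of mean CPM + 1) of genes in chromosomal order around the thalianol genes and around AT4G15390, in WT (grey), ire1b (orange) and ire1a1b (blue), with an asterisk for genes among the 50 and the −0.8 bound dashed. CYP705A5, CYP708A2 and THAS1 form an unbroken run below the bound in both mutants, while on chromosome 4 AT4G15390, CYP702A5 and CYP705A1 are below it in both.

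Beyond this run, which holds 2 adjacent pairs, UMAMIT34 and AT4G30450 lay with 2 genes between them and AT4G35030 and HIPP25 with 3. The 5 chromosomes held 12, 6, 8, 12 and 12 of the 50 genes, beside 4039, 2326, 3056, 2397 and 3613 genes at the floor.

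Genes of mineral and metal transport or binding made up 8 of the 50 by a grouping done after the genes were known. The 8 include AT2G39210 and AT4G00910, whose annotations do not name a mineral or metal as the substance moved. Boron is taken up through NIP5;1 and exported towards the xylem by BOR1, and both proteins are membrane transporters that plants regulate by boron supply. BOR1 (chr2:19357420-19361328) had 84.3, 91.5 and 122 CPM in DMSO and 81.3, 75.2 and 93.5 CPM in TM in WT. In ire1b, BOR1 had 116, 106 and 96.7 CPM in DMSO and 52.6, 49.1 and 43.7 CPM in TM, and in ire1a1b it had 91.4, 87.4 and 119.7 CPM in DMSO and 47.7, 55.9 and 45.7 CPM in TM. AT3G62270 (chr3:23042212-23046153), its paralogue with the RefSeq synonym BOR2, had 47.1, 43.4 and 56.4 CPM in DMSO and 48.1, 42.3 and 48.7 CPM in TM in WT. In ire1b, AT3G62270 had 54.03, 45.7 and 37.9 CPM in DMSO and 21.9, 24.2 and 21.3 CPM in TM, and in ire1a1b it had 58.9, 47.8 and 60.7 CPM in DMSO and 31.8, 27.8 and 26.4 CPM in TM. For both genes every mutant TM library was below every other library. The changes of BOR1 were −0.25 in WT, −1.12 in ire1b and −0.99 in ire1a1b, and those of AT3G62270 were −0.08 in WT, −1.0 in ire1b and −0.94 in ire1a1b. AT3G06450, the other family member at the floor (RefSeq synonym BOR3), changed by 0.02, −0.08 and −0.01, and the channel NIP5;1 by −0.34, −1.10 and −0.57. Of the 3 family members at the floor, BOR1 and AT3G62270 were thus lower in the mutants under TM and AT3G06450 stayed near its DMSO level.

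ZIP2 (chr5:23991213-23992908), a transporter of the ZIP family of zinc and manganese carriers, had 26.6, 32.01 and 33.6 CPM in DMSO and 23.8, 24.9 and 26.2 CPM in TM in WT. In ire1b, ZIP2 had 28.2, 29.9 and 44.04 CPM in DMSO and 8.09, 11.8 and 11.5 CPM in TM, and in ire1a1b it had 21.4, 32.9 and 35.9 CPM in DMSO and 7.73, 12.2 and 9.17 CPM in TM. No mutant TM library reached the lowest value of any other group. NAS1, which makes the metal chelator nicotianamine, had 14.2, 30.6 and 31.3 CPM in DMSO and 19.1, 35.97 and 30.4 CPM in TM in WT. In ire1b, NAS1 had 32.9, 29.6 and 22.4 CPM in DMSO and 16.2, 15.8 and 13.8 CPM in TM, and in ire1a1b it had 13.7, 27.7 and 29.01 CPM in DMSO and 7.45, 16.95 and 9.88 CPM in TM. Its replicate 1 libraries of WT and ire1a1b were low in both treatments, so that the ire1a1b groups overlapped, and its changes were 0.16 in WT, −0.85 in ire1b and −0.98 in ire1a1b. Its paralogues at the floor had smaller changes, −0.22, −0.43 and −0.55 for NAS3 and 0.17, −0.19 and −0.27 for NAS4.

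The metal-binding protein HIPP25 had changes of −0.08 in WT, −1.22 in ire1b and −0.91 in ire1a1b, and AT5G48290, of the same heavy-metal domain superfamily, −0.24 in WT, −1.34 in ire1b and −0.87 in ire1a1b. AT4G00910, annotated in the family of aluminium-activated malate transporters, had −0.01 in WT, −1.63 in ire1b and −1.46 in ire1a1b, with replicate 1 of WT and ire1a1b the lowest of its group in both treatments. AT2G39210, a major facilitator superfamily protein, had −0.23 in WT, −1.37 in ire1b and −0.89 in ire1a1b.

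Cytosolic glutamine synthetase assimilates ammonium, and LHT1 imports amino acids into root and leaf cells. GSR2 (chr1:24655115-24657703), which encodes the isoform GLN1;2, was the most abundant of the 50 genes in CPM. It had 686, 1038 and 1172 CPM in DMSO and 737, 1162 and 1197 CPM in TM in WT. In ire1b, GSR2 had 1045, 1042 and 1124 CPM in DMSO and 469.8, 476 and 428 CPM in TM, and in ire1a1b it had 631, 970.1 and 1069 CPM in DMSO and 379.5, 585 and 536 CPM in TM. Replicate 1 of WT and ire1a1b was the lowest of its group in both treatments, and still no mutant TM library was above its own DMSO libraries. The changes of GSR2 were 0.10 in WT, −1.22 in ire1b and −0.83 in ire1a1b. The related genes AT5G37600 (GLN1;1) and AT3G17820 (GLN1;3) changed by −0.27, −0.84 and −0.52 and by 0.03, −0.14 and −0.16, so the 3 isoforms at the floor differed in how much they moved in the mutants.

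LHT1 (chr5:16323567-16327382) had 75.7, 80.9 and 88.2 CPM in DMSO and 73.8, 66.2 and 59.6 CPM in TM in WT. In ire1b, LHT1 had 86.6, 107 and 129 CPM in DMSO and 25.4, 28.03 and 25.7 CPM in TM, and in ire1a1b it had 82.1, 139 and 92.6 CPM in DMSO and 56.9, 55.1 and 47.5 CPM in TM. The ire1b TM libraries were the lowest, those of ire1a1b lay between them and the WT TM libraries, and the second ire1a1b DMSO library was the highest of all 18. Its changes were −0.29 in WT, −1.99 in ire1b and −0.97 in ire1a1b. UMAMIT34, of a family with known amino acid exporters, had −0.29 in WT, −1.39 in ire1b and −1.35 in ire1a1b.

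ER bodies are ER-derived compartments of seedlings and roots in the Brassicales that store beta-glucosidases such as PYK10. NAI1 (chr2:9684562-9686613), the basic helix-loop-helix factor needed to form them, had 22.1, 17.2 and 17.4 CPM in DMSO and 16.3, 13.7 and 17.6 CPM in TM in WT. In ire1b, NAI1 had 20.6, 19.1 and 14.6 CPM in DMSO and 9.05, 9.42 and 6.91 CPM in TM, and in ire1a1b it had 18.3, 19.96 and 22.3 CPM in DMSO and 7.61, 9.94 and 10.12 CPM in TM. MEB1 (chr4:13873708-13876528), a membrane protein of ER bodies, had 68.8, 57.4 and 60.2 CPM in DMSO and 58.5, 47.5 and 47.03 CPM in TM in WT. In ire1b, MEB1 had 59.8, 64.5 and 55.3 CPM in DMSO and 27.6, 30.4 and 23.2 CPM in TM, and in ire1a1b it had 61.4, 62.97 and 58.7 CPM in DMSO and 31.6, 31.7 and 29.3 CPM in TM. In both genes the mutant TM libraries lay below all other libraries. The changes were −0.24 in WT, −1.01 in ire1b and −1.05 in ire1a1b for NAI1 and −0.28 in WT, −1.12 in ire1b and −0.96 in ire1a1b for MEB1. Other ER body genes lay outside the selection in different ways. The change of MEB2 was −0.67 in ire1a1b, while PYK10, with −1.74 in WT, −1.66 in ire1b and −0.79 in ire1a1b, and NAI2, with −0.97, −1.41 and −0.96, were also lower in WT.

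Among the genes of the cell wall and of glycans, XTH31 (chr3:16446935-16448844), a xyloglucan-modifying enzyme, had the largest size of change in ire1a1b after AT4G15390. It had 67.95, 127 and 103 CPM in DMSO and 80.2, 99.9 and 87.3 CPM in TM in WT. In ire1b, XTH31 had 119, 114 and 91.02 CPM in DMSO and 38.8, 39.6 and 28.5 CPM in TM, and in ire1a1b it had 81.8, 91.2 and 83.8 CPM in DMSO and 11.9, 25.5 and 18.5 CPM in TM. The ire1a1b TM libraries were below those of ire1b, and both were below all others. GH9C1, an endoglucanase of root hairs, had 12.01, 13.9 and 13.8 CPM in DMSO and 10.7, 10.7 and 11.98 CPM in TM in WT. In ire1b, GH9C1 had 15.4, 15.5 and 13.3 CPM in DMSO and 5.32, 5.69 and 4.96 CPM in TM, and in ire1a1b it had 15.03, 13.3 and 13.7 CPM in DMSO and 4.47, 3.77 and 4.201 CPM in TM, and the mutant TM libraries were less than those of any other group. FUT6, which adds fucose to arabinogalactan proteins, had changes of −0.23 in WT, −1.63 in ire1b and −1.34 in ire1a1b, the extensin gene EXT12 had −0.27 in WT, −1.07 in ire1b and −0.84 in ire1a1b, and the glycine-rich protein gene AT4G30450 had −0.29 in WT, −1.36 in ire1b and −1.12 in ire1a1b.

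STS (stachyose synthase) and GolS4 (galactinol synthase) belong to the synthesis of raffinose family sugars. The changes of STS were −0.0025 in WT, −1.50 in ire1b and −1.25 in ire1a1b. For GolS4 they were −0.27 in WT, −1.08 in ire1b and −0.81 in ire1a1b, but replicate 1 was the lowest of its group in WT and ire1a1b under both treatments. GolS4 had 3.44, 8.26 and 11.6 CPM in DMSO and 3.13, 5.65 and 9.92 CPM in TM in WT and 3.61, 8.02 and 11.3 CPM in DMSO and 2.37, 3.72 and 5.68 CPM in TM in ire1a1b, and the ire1a1b groups overlapped.

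**Figure D4:**
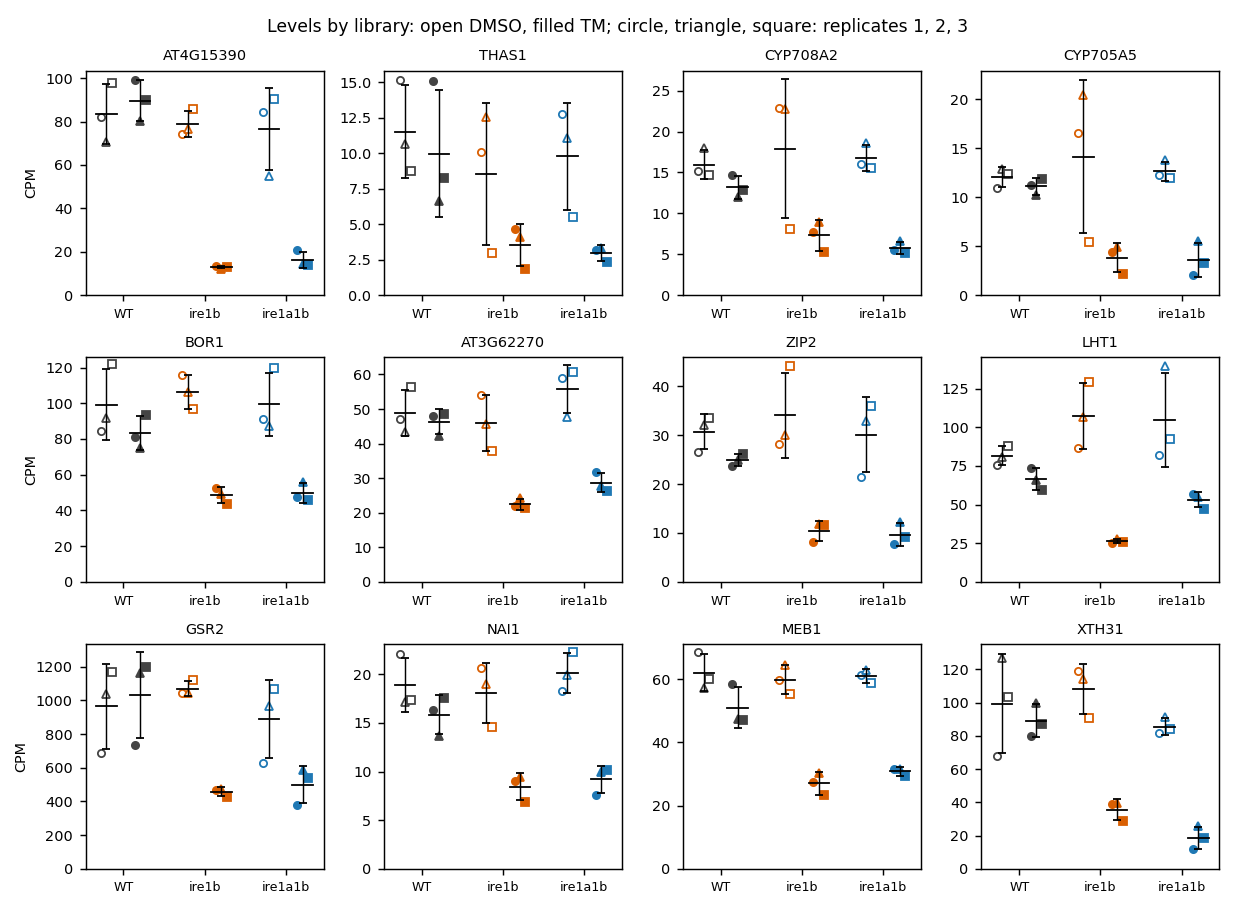
CPM of 12 of the 50 genes by library in WT (grey), ire1b (orange) and ire1a1b (blue), open for DMSO and filled for TM, with the mean and SD of 3 libraries in black. WT TM overlaps or nears WT DMSO in each panel, the mutant TM libraries are low, and LHT1 is the panel in which ire1a1b TM lies well above ire1b TM.

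Kinases, transcription factors and other signalling proteins numbered 11, with median changes of −0.15 in WT, −1.44 in ire1b and −1.03 in ire1a1b. SNRK2.7 is a kinase of the family that acts in osmotic stress and abscisic acid signalling. It had 6.699, 5.77 and 8.52 CPM in DMSO and 6.21, 5.34 and 5.603 CPM in TM in WT. In ire1b, SNRK2.7 had 9.12, 8.54 and 8.26 CPM in DMSO and 2.64, 2.39 and 2.34 CPM in TM, and in ire1a1b it had 9.26, 6.83 and 8.05 CPM in DMSO and 3.099, 2.603 and 1.58 CPM in TM, and the mutant TM libraries did not overlap any other group. The leucine-rich repeat kinase gene AT1G05700 had 19.5, 21.7 and 24.6 CPM in DMSO and 22.8, 23.2 and 20.97 CPM in TM in WT. In ire1b, AT1G05700 had 24.9, 27.6 and 40.8 CPM in DMSO and 8.59, 8.51 and 8.58 CPM in TM, and in ire1a1b it had 22.9, 32.3 and 26.2 CPM in DMSO and 13.2, 13.8 and 11.5 CPM in TM, with the ire1a1b TM libraries between those of ire1b and WT. AT4G35030, a protein kinase superfamily member, had changes of −0.15 in WT, −1.44 in ire1b and −1.13 in ire1a1b.

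AT5G61890, a DNA-binding protein of the AP2/ERF family, had 4.52, 7.84 and 9.72 CPM in DMSO and 6.51, 5.297 and 6.32 CPM in TM in WT. In ire1b, AT5G61890 had 10.5, 9.89 and 20.4 CPM in DMSO and 2.72, 3.25 and 3.18 CPM in TM, and in ire1a1b it had 5.25, 16.9 and 13.9 CPM in DMSO and 2.54, 4.99 and 3.198 CPM in TM. Its DMSO level was highest in replicate 3 of ire1b and lowest in replicate 1 of WT and of ire1a1b, and the mutant TM libraries stayed below every TM library of WT. PIL5, the phytochrome-interacting factor PIF1 that represses seed germination in the dark, had −0.21 in WT, −0.81 in ire1b and −0.88 in ire1a1b, near the bound in both mutants. AT5G19970 (annotated as a GRAS family factor), AT2G46690 (SAUR-like, of the auxin-responsive family), EXO70H1 (an exocyst subunit), AT3G13600 (calmodulin-binding), AT1G29020 (an EF-hand protein) and AT3G20380 (TRAF-like) had ire1b changes of −1.04, −1.09, −1.64, −1.34, −1.03 and −1.58. In ire1a1b their changes were −1.03, −0.93, −1.03, −0.88, −0.86 and −0.89 in the same order.

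The other 15 genes had median changes of −0.16 in WT, −1.15 in ire1b and −0.90 in ire1a1b. PRN (pirin, a cupin protein that binds the G protein alpha subunit) had 42.7, 48.3 and 47.8 CPM in DMSO and 44.9, 41.3 and 41.2 CPM in TM in WT. In ire1b, PRN had 52.8, 54.03 and 35.4 CPM in DMSO and 17.3, 18.03 and 12.03 CPM in TM, and in ire1a1b it had 52.6, 52.7 and 51.9 CPM in DMSO and 21.7, 20.2 and 18.4 CPM in TM. MLP34, a protein of the major latex protein family, had 290.2, 249 and 336 CPM in DMSO and 278, 245 and 271 CPM in TM in WT. In ire1b, MLP34 had 279.8, 271 and 230.0 CPM in DMSO and 118, 107 and 83.3 CPM in TM, and in ire1a1b it had 175, 166 and 237 CPM in DMSO and 61.9, 77.03 and 68.3 CPM in TM, with every ire1a1b library below every WT library in DMSO too. For both genes the mutant TM libraries stayed below every other library. KCS12, of the family that elongates very-long-chain fatty acids, had 138, 115 and 116 CPM in DMSO and 131, 87.3 and 95.8 CPM in TM in WT. In ire1b, KCS12 had 132, 132 and 140.3 CPM in DMSO and 60.8, 61.5 and 57.99 CPM in TM, and in ire1a1b it had 139.6, 135 and 118 CPM in DMSO and 77.4, 77.1 and 67.4 CPM in TM. Its changes were −0.23 in WT, −1.15 in ire1b and −0.81 in ire1a1b, and its mutant TM libraries were likewise the lowest of the 18.

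AT4G22470, annotated as a protease inhibitor, seed storage or lipid transfer protein, had 46.5, 141 and 136 CPM in DMSO and 74.3, 102 and 92.1 CPM in TM in WT. In ire1b, AT4G22470 had 117, 118 and 141 CPM in DMSO and 39.04, 44.5 and 42.1 CPM in TM, and in ire1a1b it had 43.4, 159.6 and 136 CPM in DMSO and 45.96, 79.9 and 47.8 CPM in TM. Its replicate 1 DMSO libraries of WT and ire1a1b were about as low as mutant libraries in TM, and no such gap appeared in ire1b. The methyltransferase gene AT5G37990 had −0.06 in WT, −0.98 in ire1b and −1.57 in ire1a1b, with the lower value in the double mutant. FLS3 (flavonol synthase family), CYP87A2 (a cytochrome P450), ST4B (a sulfotransferase), GSTU26 (a glutathione transferase) and EP3 (a chitinase) had ire1b changes of −1.03, −1.03, −1.23, −0.97 and −1.41 and ire1a1b changes of −0.81, −0.90, −0.89, −0.98 and −0.88. For USPL1, AT3G25930, AT4G22980, AT1G65486 and AT5G42860 the ire1b changes were −1.06, −1.31, −0.97, −1.26 and −0.82 and those in ire1a1b −0.93, −1.01, −0.81, −0.81 and −0.80.

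At the bound of −0.8 the nearest genes inside were AT5G42860 (−0.8008 in ire1a1b), AT1G65486 (−0.8082 in ire1a1b) and PIL5 (−0.8083 in ire1b). The nearest outside, with a WT change in the window, were AT2G32430, AT5G41810 and AT4G38560, with −0.7952, −0.7855 and −0.7782 in ire1a1b. At the lower edge of the WT window AT1G29020, LHT1 and ZIP2 (−0.29 each) were inside, and PHT3;2, AT2G04170 and AT1G31950 (−0.3008, −0.3019 and −0.3028) were outside.

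Sorted by words in their annotation, with lists written after the genes were known, 24 of the 50 were in at least 1 of 23 lists and 26 in none. Transporters and channels held 7 of them among 505 listed genes at the floor (1.39%, where 0.323% of all genes at the floor were among the 50), cytochrome P450 genes 3 of 115, transcription factors 3 of 451, protein kinases 3 of 575 and cell wall genes 2 of 328. The lists go by words alone, and ZIP2, PIL5, GH9C1 and FUT6, each given a role above, were in no list. Only 11 of the 23 lists held any of the 50. Among those that held 0 were photosynthesis (179 genes at the floor), cytosolic ribosomal proteins (281) and the cell cycle (174). With 0.323% of all genes at the floor among the 50, nothing is read from 0 in lists of these sizes. Of the 641 transporter genes tested by edgeR, 73 fell in WT, 156 in ire1b and 92 in ire1a1b at adjusted p below 0.05, and 39, 51 and 34 rose. For cytochrome P450 genes the counts of 182 were 22, 60 and 36 fallen and 4, 9 and 10 risen. Of all tested genes 5.77%, 11.6% and 6.59% fell, the share that rose was not taken, and nothing is read from these counts. Median log2 changes in that fit were −0.15, −0.15 and −0.11 for transporters and −0.26, −0.38 and −0.19 for cytochrome P450 genes.

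Markers of the cell types in a seedling, none of which was among the 50, moved as follows. Of 6 root hair markers edgeR called 4 as fallen in WT, 6 in ire1b and 5 in ire1a1b at adjusted p below 0.05. Their summed level ranged from 72.2 to 78.3 CPM in WT DMSO and from 34 to 45.6 in WT TM, from 79 to 87.6 and 29.2 to 31.2 in ire1b, and from 77.8 to 93.2 and 30 to 36 in ire1a1b. Of 8 endodermis markers 5 fell in each genotype by the same test, from sums of 48 to 52.6 CPM to 25.6 to 35 in WT, from 42.9 to 50.2 to 14.6 to 23.5 in ire1b, and from 50.2 to 52.8 to 15.2 to 22.4 in ire1a1b. Markers of green shoot (8), dividing cells (7) and phloem (3) gave 0 calls in any genotype, and of 5 xylem markers 2 fell in WT, 1 in ire1b and 0 in ire1a1b. Of all these markers, 1 of the endodermis was at 0 in at least 1 library and 0 were at 0 in every library. The root markers were thus lower in WT too, with the lowest TM sums in the mutants, and their part in the levels of the 50 genes was not tested.

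The mutants are set side by side here as a description, because the selection used the same libraries. It put both changes at −0.8 or lower, and this bound did not act alike on the 2 mutants, since 722 genes at the floor met it in ire1b and 361 in ire1a1b. Positive values of the difference stand for a smaller fall in ire1a1b. For the TM response of ire1a1b against that of ire1b, the edgeR estimate was above 0 for 40 of the 50 genes and below 0 for 10, with a median of 0.22 on the log2 scale, a range of −0.63 to 1.06 and a median SE of 0.27. The median over all tested genes was 0.00. LHT1 had the largest difference, 1.06 ± 0.27 (SE), followed by AT1G05700 (0.79 ± 0.26), AT3G20380 (0.76 ± 0.29) and EXO70H1 (0.73 ± 0.44). At the other end AT5G37990 had −0.63 ± 0.40 and XTH31 −0.59 ± 0.36. With edgeR 0 of the 50 genes were called (160 genes in all, 0.776% of 20615 tested genes) and 6 were below 0.05 unadjusted (7.08% of all tested genes). DESeq2 called 1 of them, LHT1, and 265 genes in all. In edgeR without replicate 2 of ire1a1b in DMSO, its highest library, LHT1 was also called, with 132 genes called in all. LHT1 was thus called in 2 of 28 alternatives, over which its difference ranged from 0.84 to 1.36. Nothing is read from these counts, and they do not show that the mutants responded alike.

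**Figure D5:**
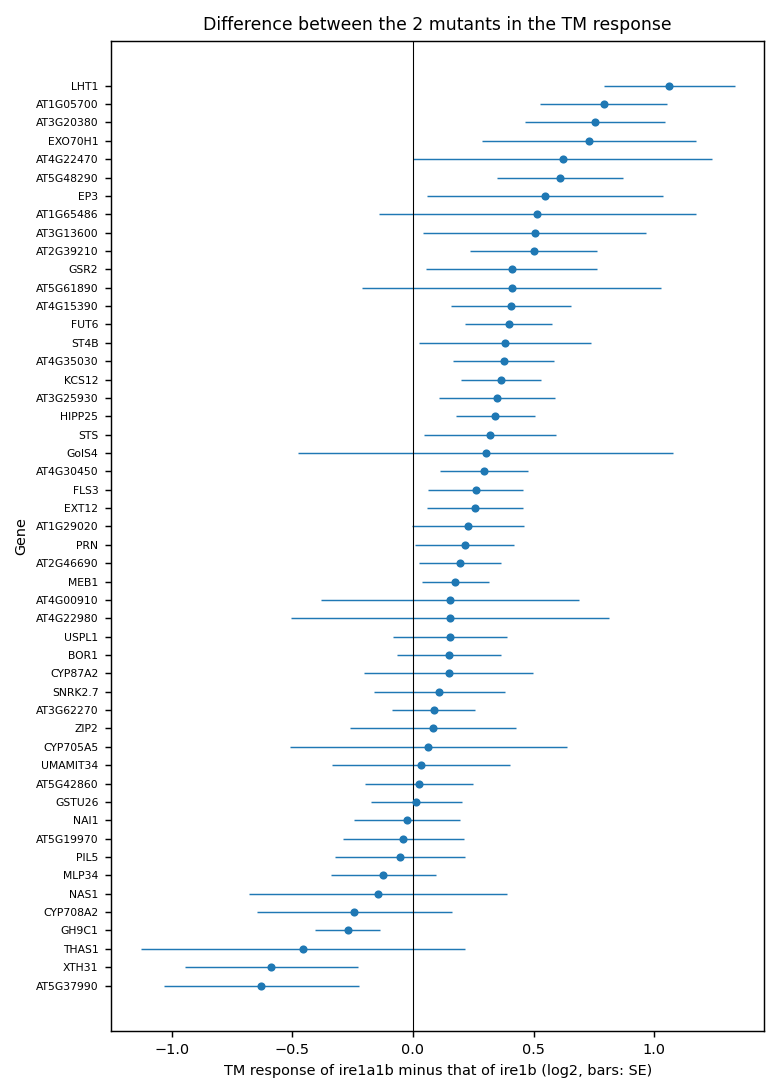
Difference in the TM response between ire1a1b and ire1b for each of the 50 genes (log2, points with SE bars from the edgeR fit), ordered by size. Points to the right of 0 had a smaller fall in ire1a1b, which holds for 40 genes, and LHT1 at 1.06 is the farthest.

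The DMSO levels entered the selection through the changes and the floor, so differences between genotypes in DMSO are a description too. Between ire1a1b and ire1b the difference was below 0 for 43 genes and above 0 for 7, with a median of −0.18 on the log2 scale and a range of −0.60 to 0.25. The median over all tested genes was −0.005. In DMSO, replicate 1 minus the mean of replicates 2 and 3 had a median over the 50 genes of −0.2 in WT, −0.14 in ire1a1b and 0.08 in ire1b. How far this entered the DMSO differences between genotypes, here and against WT, was not tested. HIPP25 had −0.50 ± 0.11 (SE), and its 3 ire1a1b DMSO libraries, at 5.329 to 5.596 CPM, lay below the 3 of ire1b, at 7.39 to 7.59 CPM. EdgeR called 0 of the 50 (0.16% of all tested genes), 4 were below 0.05 unadjusted (3.25% of all), and DESeq2 called 0 (42 genes in all).

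Against WT, the DMSO levels were higher in ire1b for 38 of the 50 genes, with a median of 0.17 on the log2 scale, and in ire1a1b for 25, with a median of 0.02. Over all tested genes the medians were −0.0008 and −0.002. By edgeR 0 of the 50 were called in either (0.0291% and 0.131% of all tested genes). Below 0.05 unadjusted were 6 genes in ire1b (4% of all tested genes) and 2 in ire1a1b (2.09%). DESeq2 called 0 of the 50 in either (10 genes in all for ire1b and 39 for ire1a1b).

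Replicate 1 of WT and ire1a1b touched some of these genes more than others. In DMSO it was lower than the mean of the other replicates by 0.8 or more on the log2 scale for 9 genes, the same ones in both genotypes: AT1G65486, AT3G13600, AT4G00910, AT4G22470, AT4G22980, AT5G61890, EP3, GolS4 and NAS1. In TM replicate 1 was lower by as much for AT4G00910, AT4G22980 and GolS4 in WT and for AT4G22980, AT5G37990 and XTH31 in ire1a1b. It was higher by as much for 1 gene in WT. Without these 4 libraries, a setting added after the data were seen, the median change of the 50 genes was −0.26 in WT and −1.03 in ire1a1b, the WT changes ranged from −0.52 to 0.22, and 32 genes still met the rule. AT5G61890 and AT4G22470 then had WT changes of −0.52 and −0.51, and THAS1 and CYP708A2 −0.34 and −0.37. With each library, and each replicate number, left out in turn, and with TMM-scaled values, 16 genes met the rule throughout: AT4G15390, CYP705A5, FUT6, GH9C1, MLP34, PRN, STS, AT4G00910, AT3G62270, AT1G05700, AT4G35030, HIPP25, AT2G46690, AT5G19970, USPL1 and GSTU26.

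In the encoded proteins, translated from the TAIR10.1 annotation, 17 of the 50 (34%) had a hydrophobic stretch near the N terminus, beside 19.2% of the genes at the floor and 71.8% of the 117 genes with a change of −0.8 or lower in all 3 genotypes. The stretch was defined as 10 residues within the first 35 with a mean Kyte-Doolittle hydropathy of at least 2. At least 4 hydrophobic stretches of 19 residues were found in 7 proteins (14%), beside 5.7% at the floor, 9.4% in the genes lower in all 3 genotypes and 12.6% in 111 genes raised in both mutants with WT inside the window. N-glycosylation sequons numbered 0.593 per 100 residues, beside 0.599 at the floor and 0.67 in the genes lower in all 3 genotypes. The median protein had 374 residues, against 401 at the floor, and the median gene 3 exons, as in the genes lower in all 3 genotypes, against 5 at the floor. These shares are descriptions with no test.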

How the data were processed

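The raw counts per gene deposited by the authors come from STAR 2.4.0, the build TAIR10 and HTSeq 0.6.0, per the submitters' processing notes. Counting mode and strand setting are not given in the sources used here. Overlapping, antisense and near-identical genes are therefore uncertain. HTSeq summary entries (5.71% to 6.22% of all counts) were left out. Replicate numbers are those of the sample titles, with which the replicate tag inside the labels conflicts, so every value by replicate number, and the replicate block, depends on the titles. Of 27416 identifiers 26719 matched the TAIR10.1 annotation, all 50 genes among them, and coordinates are those of TAIR10.1.

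CPM used plain library totals with a pseudocount of 1 CPM. A single edgeR 4.0.16 quasi-likelihood model (R 4.3.3, TMM, filterByExpr, 20615 genes) covered all 18 libraries, with Benjamini-Hochberg adjustment over all tested genes. It was also run on simulated counts with large changes and no replicate 1 shift, a simpler setting than these data. DESeq2 1.42.0, other scalings and filters, a replicate block, libraries left out and other selection bounds were alternatives. The genes, lists and tests were chosen with earlier results of these data known, and list words, roles, families and neighbours after the 50 genes were seen. Genes described by library were mainly the 12 with the lowest mean change in both mutants and the 8 most abundant, with 3 on each side of a bound and any list or role member as an example. Residuals of same-numbered libraries correlated by 0.56 to 0.822 for ire1a1b against WT in DMSO, which meets the threshold of 0.1 used for pairing. In the other 3 comparisons between genotypes the lowest pair had 0.0144 to 0.0708 and the highest pair 0.212 to 0.701. The counts given in the Results are from the fit without the replicate block.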

Additional observations from a re-analysis of the deposited data

How the results depend on the processing

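The count of genes meeting the rule went from 50 to 76 with a floor of 1 CPM, 22 with a mutant bound of −1 and 25 with a WT window of 0.2. With 1 library left out, from 41 genes (without replicate 3 of ire1a1b in DMSO) to 74 (without replicate 3 of WT in DMSO) met the rule. The 74 held 46 of the 50, and the others were new genes meeting the rule. Of the 50 genes, 31 met it with group medians, 22 with the bound of −1, 25 with the window of 0.2, 32 once replicate 1 of WT and of ire1a1b was dropped in both treatments, and between 29 and 50 with a library or replicate number left out, the lowest without replicate 1 of every group. For the 50 genes, the single library that mattered most was replicate 1 of WT in DMSO, without which 32 remained. With TMM-scaled CPM 39 remained, since values near a bound cross it, and 34 genes were lost in at least 1 left-out setting. In the TM response of ire1a1b against ire1b, DESeq2 called 1 of the 50 (LHT1) and 265 genes in all. Leaving out libraries gave 0 to 1 calls among the 50, with 132 genes called in all in the fit that gave 1. The replicate block gave 0 calls among the 50 in all 4 comparisons between genotypes, as did the remaining alternatives. With the block, 7 of the 50 were below 0.05 unadjusted in the TM response of ire1a1b against ire1b. In DMSO they numbered 10 for ire1a1b against ire1b, 12 for ire1b against WT and 3 for ire1a1b against WT. The share of all tested genes below 0.05 unadjusted was not taken with the block, so nothing is read from these counts. The block also raised the calls over all genes in the TM response of ire1a1b against ire1b, from 160 to 316 at adjusted p below 0.05. At this depth 27 of the 50 genes were below 20 CPM in DMSO.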
